A study of Mus musculus with 8 samples.

Results

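The Snrpn domain of mouse chromosome 7 was represented by 5 of the 22810 genes in the counts: Snurf, Snrpn, Snhg14, C230091D08Rik and Ube3a. They were chosen by symbol, not by their values. RNA of single E3.5 blastocysts from natural reciprocal matings, lysed without in vitro culture, was sequenced with SMART-Seq2, and only reads covering a SNP between C57BL/6 (B6) and Mus musculus castaneus (cast) were counted, separately for each strain. The forward cross (B6 mother, cast father) gave 3 embryos, numbered 1 to 3, and the reverse cross (cast mother, B6 father) gave 5 embryos, numbered 1, 2, 3, 5 and 7. A B6 read is therefore maternal in forward embryos and paternal in reverse embryos. The embryos were untreated F1 hybrids, not matched for sex, and the labels do not say which share a litter.

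The domain is a classic imprinted region. Its imprinting centre, a stretch at the Snurf and Snrpn start, is methylated on the maternal chromosome in the oocyte, so that transcription of Snurf, Snrpn and the long noncoding Snhg14 starts from the paternal chromosome. Snhg14 hosts clusters of small nucleolar RNAs and, in neurons, runs antisense through Ube3a and silences the paternal Ube3a allele, whereas other tissues read Ube3a from both alleles. Loss of the paternal copy of the human region causes Prader-Willi syndrome and loss of the maternal UBE3A copy causes Angelman syndrome.

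In GENCODE M21 (mm10), Snurf lies at chr7:59995449-60005049 and Snrpn at chr7:59982495-60140219, both on the minus strand, with Snhg14 at chr7:59307924-59975759 on the same strand and Ube3a at chr7:59228750-59311536 on the plus strand. Snurf and Snrpn come from a bicistronic transcript. All 216 exonic bases of Snurf also lie in exons of Snrpn (2159 exonic bases), and RefSeq gives both genes the same end, so a read of the shared exons could count for either gene or for both. Another GENCODE gene, Gm38393, also holds all 216 exonic bases of Snurf and 27.3% of those of Snrpn. Ube3a and Snhg14 share 1803 exonic bases on opposite strands, which is 8.74% of the exonic bases of Ube3a. SMART-Seq2 does not mark strand, so reads of these bases cannot be assigned to either gene by direction. In RefSeq, the span of Snhg14 covers 46.4% of the span of Ube3a. C230091D08Rik is listed by RefSeq as a synonym of Snhg14, but it had its own counts, and its exons were not located here.

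**Figure D1:**
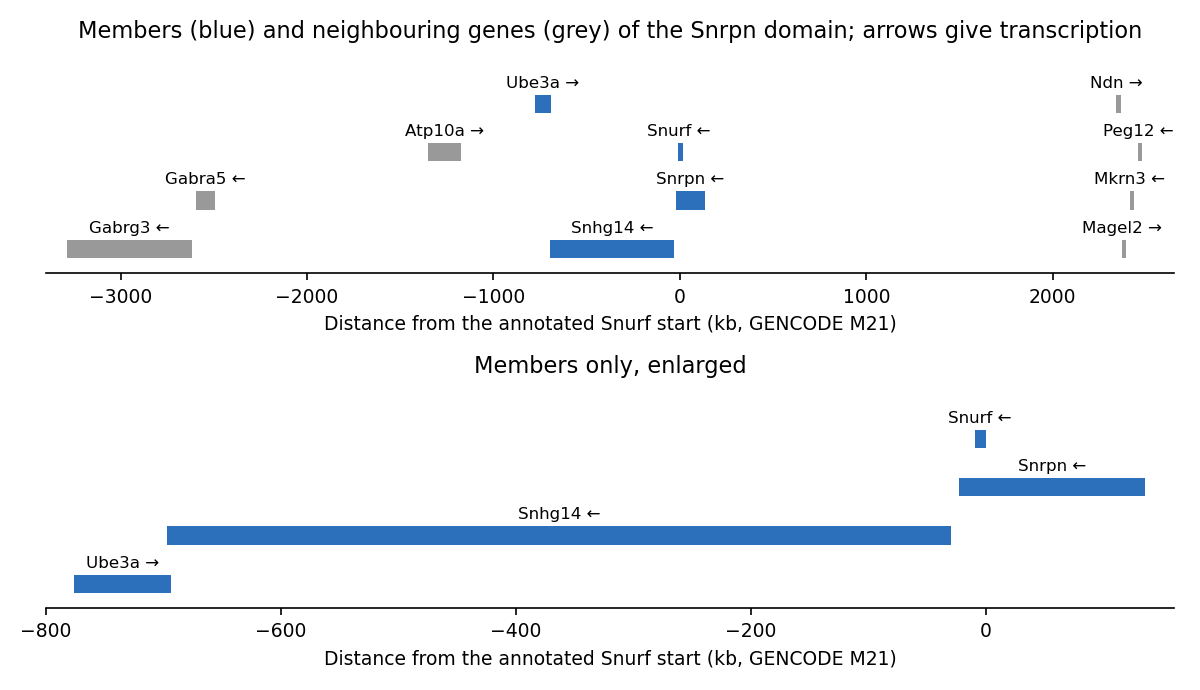
Position of the domain genes and their neighbours along chromosome 7, in kilobases from the annotated Snurf start (GENCODE M21), with bars for gene spans and arrows for the direction of transcription. Snurf lies within Snrpn, Snhg14 continues in the same direction, and the end of Snhg14 overlaps the end of Ube3a, which runs against it; C230091D08Rik has no GENCODE position and is not drawn.

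The start regions are shown because the domain holds both kinds of gene, those read from the paternal allele and Ube3a, and because Snurf and Snrpn share a start. RefSeq (GRCm38.p6) gave start windows for Snurf, Snrpn, Snhg14 and Ube3a. Each sequence below runs from 250 bases before the start to 30 after it, on the strand of the gene. Capitals mark TGCCGC (the core recognised by the imprint-protecting factor ZFP57), AAGATGGC (the core of YY1) or CGCATGCG (the middle of the NRF1 motif), each searched on both strands.
Snurf and Snrpn, chr7:60005170-60005449, minus strand: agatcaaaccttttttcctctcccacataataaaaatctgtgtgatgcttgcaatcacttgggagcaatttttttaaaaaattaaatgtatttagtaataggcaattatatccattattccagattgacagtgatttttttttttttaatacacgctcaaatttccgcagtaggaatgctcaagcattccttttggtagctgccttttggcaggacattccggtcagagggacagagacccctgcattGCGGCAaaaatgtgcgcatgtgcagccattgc
Snrpn upstream start shared with Snhg14, chr7:60450148-60450427, minus strand: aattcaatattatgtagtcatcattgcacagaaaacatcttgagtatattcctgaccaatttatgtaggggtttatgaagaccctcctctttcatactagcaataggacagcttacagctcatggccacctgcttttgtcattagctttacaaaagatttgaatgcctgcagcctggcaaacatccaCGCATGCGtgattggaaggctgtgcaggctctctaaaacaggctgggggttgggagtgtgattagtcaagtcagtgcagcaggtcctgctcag
Ube3a, chr7:59228500-59228779, plus strand: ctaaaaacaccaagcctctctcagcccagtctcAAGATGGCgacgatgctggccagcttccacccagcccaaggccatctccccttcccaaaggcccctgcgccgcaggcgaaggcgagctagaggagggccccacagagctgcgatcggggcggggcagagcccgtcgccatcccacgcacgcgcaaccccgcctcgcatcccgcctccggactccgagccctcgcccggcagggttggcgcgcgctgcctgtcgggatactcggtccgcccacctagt

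The Ube3a window of 300 bases held 29 CpG dinucleotides against a median of 7 over 32817 RefSeq start windows, and the Snurf and Snrpn window held 7. The upstream start had 2. TGCCGC lay in the Snurf and Snrpn window and in 11.6% of all windows, AAGATGGC lay in the Ube3a window and in 2.74%, and CGCATGCG lay in the upstream window and in 1.86%. The Snurf and Snrpn window also held CGCATGCG, in the bases after the printed stretch. Snrpn had 3 upstream starts in RefSeq, whose windows were 79.7% to 81.1% identical to each other and 48.8% to 51.4% identical to the Snurf and Snrpn window, and each of the 3 held CGCATGCG. These matches describe the letters of the windows only.

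Each embryo had 1060063 to 1632695 SNP-spanning reads, of which 57.4% to 58.3% were B6. For the median gene with at least 20 reads, the mean paternal share was therefore 44.1% ± 0.508 in the 3 forward embryos and 56.4% ± 0.998 in the 5 reverse embryos (SD). Reverse embryo 1 stood apart. Over 9734 genes its Pearson correlation with the other embryos was 0.548 to 0.677, against 0.816 to 0.916 for the other pairs, and the trophectoderm keratin Krt8 was at 303 reads per 1000000 SNP-spanning reads (RPM) in it against 1787 to 2034 in the other reverse embryos. Of 8 listed neuron markers, 6 were in the counts, and Snap25 and Gad1 were not. The summed level of these 6 was 197 RPM in reverse embryo 1, nearly all from Syt1 (189 RPM, 281 maternal and 3 paternal reads). The summed level of 10 macrophage and leukocyte markers followed the cross, at 867, 43.4 and 56.4 RPM in forward embryos 1, 2 and 3 and 3.75 to 5.98 in reverse embryos. In forward embryo 1 these were 1412 maternal and 3 paternal reads, mostly of Lyz2. Lyz2 also made up most of the sum in forward embryos 2 and 3, at 33.0 and 33.7 RPM. Ptprc was read only in forward embryo 1. The part of these differences in the results below was not tested, and values without reverse embryo 1 are given beside the results that it changes.

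Snurf, which encodes a small protein of the bicistronic transcript, was read only from the father. Its maternal and paternal reads were 0 and 12, 0 and 11, and 0 and 20 in forward embryos 1, 2 and 3. In reverse embryos 1, 2, 3, 5 and 7 the paternal reads were 36, 15, 18, 33 and 40, and the maternal reads were 0 in each. No embryo of either cross had a maternal Snurf read, whether the paternal allele was cast or B6. The 0 maternal against 185 paternal reads allow a maternal share of up to 1.62%, taking 3 reads as the limit, so the paternal allele was at least 61.7-fold higher.

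The edgeR quasi-likelihood test with strain as a term gave Snurf a log2 fold change, paternal over maternal, of 7.39 (SE 0.80) with a Benjamini-Hochberg adjusted p of 4.14e-05. This fitted value depends on how 0 reads are handled and is no bound. A gene was called at an adjusted p of at most 0.1, and 139 of 12565 autosomal genes were called toward the paternal allele (1.11%), 39 toward the maternal allele (0.31%) and 178 in all (1.42%). Of the 5 domain genes, 4 passed the filter of at least 10 reads in an allele library and 2 of these, Snurf and Snrpn, were called, both paternal. Both rows may hold the same reads, so the 2 calls cannot be taken as independent. Over all tested genes with at least 100 reads, 2 of 9330 (0.0214%) had no maternal read, Snurf and Mcts2 (126 paternal reads). An exact two-sided sign-flip permutation test of the paternal share against 50% gave p = 0.00781 over the 8 embryos, the smallest this design allows.

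Snrpn, which encodes the spliceosomal Sm protein SmN, was read mainly from the father, with a few maternal reads in forward embryos. Forward embryos 1, 2 and 3 had 3, 5 and 0 maternal reads beside 12, 11 and 20 paternal reads. Reverse embryos 1, 2, 3, 5 and 7 had 38, 17, 18, 35 and 45 paternal reads and no maternal read. The forward cross had a paternal share of 82.9% ± 15.8 (SD, n = 3), and it was 100% in each of the 5 reverse embryos. Over all embryos, 8 reads were maternal and 196 paternal.

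The log2 fold change of Snrpn, paternal over maternal, was 4.39 (SE 0.67, edgeR adjusted p = 3.12e-04), and the exact sign-flip test gave p = 0.00781 over 8 embryos. The strain term, cast over B6, also tests whether the paternal bias differs between the crosses. For Snrpn it was -1.41 on the log2 scale (SE 0.61, edgeR adjusted p = 0.158), which did not pass. With a term for each embryo, the replicate block, it was -2.49 (edgeR adjusted p = 0.0332) and passed. It also passed without forward embryo 3 (-1.96, edgeR adjusted p = 0.0783). Of all genes, 15.4% were called for strain in the fit without the block, 25.5% with it and 10.4% without forward embryo 3. The maternal Snrpn reads were 3, 5 and 0 in forward embryos 1, 2 and 3. The summed macrophage markers were at 867, 43.4 and 56.4 RPM in the same embryos, and at 3.75 to 5.98 RPM in reverse embryos. The part of these markers in the maternal Snrpn reads was not tested.

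The maternal reads of Snrpn had no counterpart in Snurf, which had 0. In every allele library Snrpn had at least as many reads as Snurf, and in all 8 cast libraries the counts of both genes were equal, in the 5 reverse embryos at 0. Subtracting Snurf from Snrpn, a step chosen after the counts were seen, left 3, 5 and 0 reads in forward embryos 1, 2 and 3, all maternal. It left 2, 2, 0, 2 and 5 reads in reverse embryos 1, 2, 3, 5 and 7, all paternal. All 19 remaining reads were therefore B6 in both crosses, and 0 cast reads of 19 allow a cast share of up to 15.8%. By parent, 8 of the 19 were maternal and 11 paternal. Gene counts do not follow single reads, so whether both rows hold the same reads, and which exons hold the remaining ones, cannot be told.

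**Figure D2:**
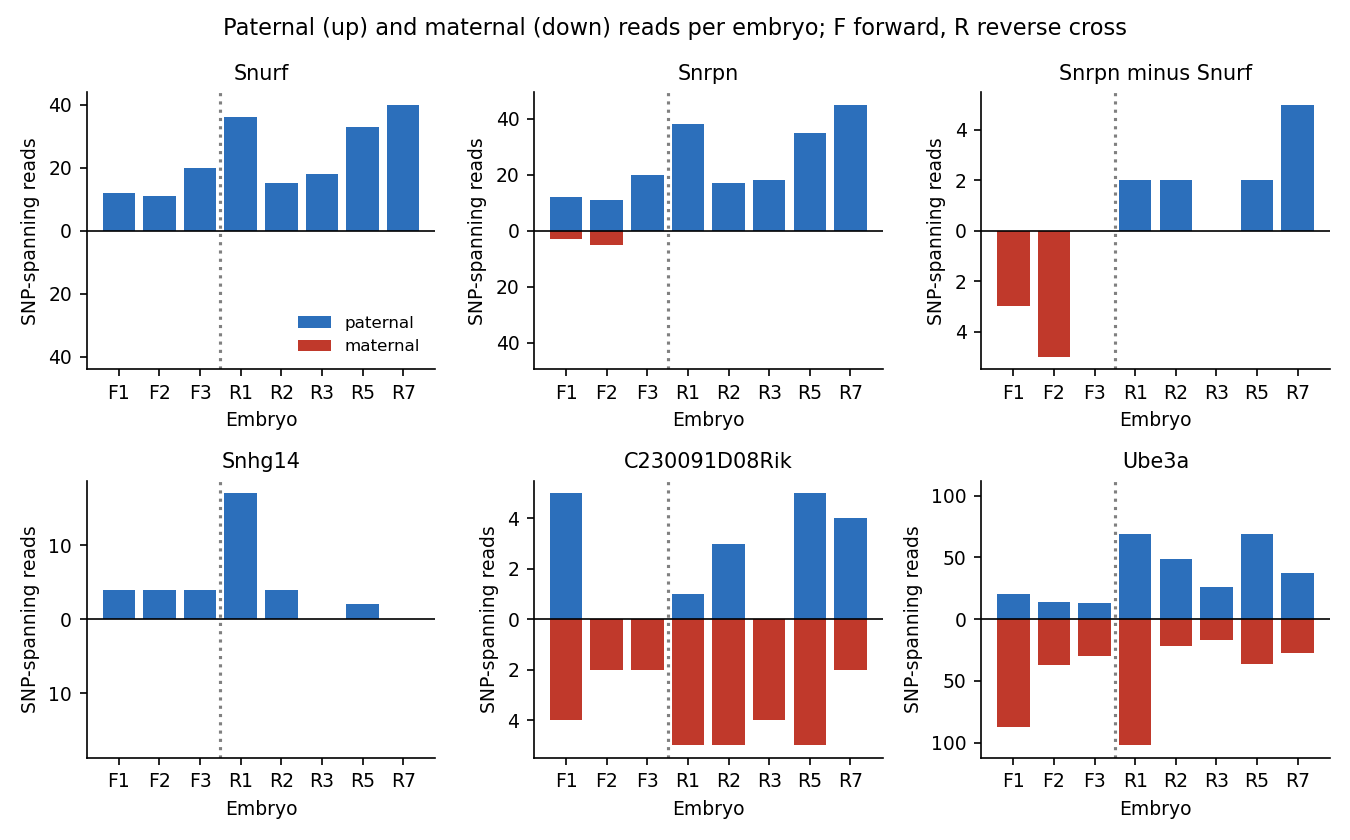
SNP-spanning reads of each domain gene per embryo, paternal upward in blue and maternal downward in red, with forward embryos (F) left and reverse embryos (R) right of the dotted line; each panel has its own scale. Snurf and Snhg14 have no maternal bar, the Snrpn counts less those of Snurf are maternal in forward and paternal in reverse embryos, and Ube3a and C230091D08Rik have both alleles.

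Snhg14, the noncoding host of the small nucleolar RNA clusters, was sparse and read only from the father. Its paternal reads were 4, 4 and 4 in forward embryos and 17, 4, 0, 2 and 0 in reverse embryos 1, 2, 3, 5 and 7, with no maternal read in any. Of the 6 embryos with a read, all 6 had only paternal reads, and an exact two-sided sign-flip permutation test over them gave p = 0.0312. The 0 of 35 maternal reads allow a maternal share of up to 8.57%, so the paternal allele was at least 11.7-fold higher. Among tested genes with 20 to 60 reads, 3.33% had no maternal read.

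In edgeR, Snhg14 had a log2 fold change of 5.08 (SE 1.33) with an adjusted p of 0.105, which missed the threshold. It entered the test only through the 17 reads of reverse embryo 1. With no filter on low counts, the same fit gave an edgeR adjusted p of 0.00994 over 21056 genes, and over all alternatives the adjusted p ranged from 0.00994 to 0.291. Without reverse embryo 1, which was also the embryo with the raised Syt1, 18 paternal reads in 5 embryos remained. The limits of 8.57% and 11.7-fold rest on all 35 reads and are looser over these 18.

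C230091D08Rik, unlike Snhg14, had maternal reads in every embryo. The maternal and paternal reads were 4 and 5, 2 and 0, and 2 and 0 in forward embryos. In reverse embryos 1, 2, 3, 5 and 7 they were 5 and 1, 5 and 3, 4 and 0, 5 and 5, and 2 and 4. In all, 29 reads were maternal and 18 paternal, and by strain 21 were B6 and 26 cast. With at most 5 reads in a library it did not pass the filter of the edgeR test of the alleles. It entered only the fit with no filter on low counts, whose value for it is not reported here. The exact sign-flip permutation test gave p = 0.75 over the 5 embryos with at least 5 reads and p = 0.0938 over all 8 embryos. Maternal reads exceeded paternal reads in 5 of the 8 embryos and the reverse held in 2. Reads counted under the 2 names of the same RefSeq gene thus differed in their alleles, with 0 of 35 maternal under Snhg14 and 29 of 47 under C230091D08Rik.

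Ube3a, the E6-AP ubiquitin ligase, was read from both alleles in every embryo. Its maternal and paternal reads were 87 and 20, 37 and 14, and 30 and 13 in forward embryos 1, 2 and 3. In reverse embryos 1, 2, 3, 5 and 7 they were 102 and 69, 22 and 49, 17 and 26, 36 and 69, and 27 and 37. The maternal allele had more reads in all 3 forward embryos and in reverse embryo 1, and the paternal allele in the other 4 reverse embryos. Summed over embryos, 358 reads were maternal and 297 paternal.

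Ube3a was not called toward either parent, with a log2 fold change, paternal over maternal, of -0.64 (SE 0.38, 95% interval -1.48 to 0.19 with 13 residual degrees of freedom, edgeR adjusted p = 0.912). The exact sign-flip test gave p = 0.602 over 8 embryos. That test has no strain term and pools crosses of unequal size, with mean paternal shares of 25.5% (forward) and 58.7% (reverse). It therefore cannot separate a parental lean from a strain difference, and no conclusion is drawn from it. The unadjusted edgeR p was 0.108 in the main fit and 0.047 with the replicate block (-0.57, edgeR adjusted p = 0.500). Neither fit called Ube3a after adjustment. Equal reading within a log2 fold change of 1 was not shown either. The equivalence test, which 35.4% of genes passed, had an edgeR adjusted p of 0.306 and passed only without reverse embryo 1 (edgeR adjusted p = 0.0717), among the alternatives tried, where 47.4% of genes passed. Without that embryo, 256 reads were maternal and 228 paternal.

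The forward cross had a Ube3a paternal share of 25.5% ± 6.02 (SD, n = 3). That of the reverse cross was 58.7% ± 11.1 (SD, n = 5), with no overlap between both (exact two-sided permutation test p = 0.0179, the smallest possible). Of 8400 genes with at least 5 reads in every embryo, 34% did not overlap between the crosses, 29.2% with the lower share in the forward cross as in Ube3a. The difference of 33.2 percentage points compares with a median of 10.9 over these genes, and 16.9% of them had a difference at least as large in the same direction. B6 reads were the majority in 7 of 8 embryos, with B6 shares of 81.3%, 72.5% and 69.8% in forward and 40.4%, 69.0%, 60.5%, 65.7% and 57.8% in reverse embryos 1, 2, 3, 5 and 7. Reverse embryo 1 was the exception, with cast the majority. Over all genes, B6 made up 57.4% to 58.3% of the reads of each embryo, and the share of reverse embryo 7 lay within that range. The strain term, cast over B6, was -0.61 (SE 0.38, edgeR adjusted p = 0.371). With the replicate block it was -0.70 and passed (edgeR adjusted p = 0.0712), as it did without reverse embryo 1 (-0.87, edgeR adjusted p = 0.0526). Of all genes, 25.5% were called for strain with the block and 20.6% without that embryo. The part of the macrophage markers, higher in the forward cross, in the difference between the crosses was not tested. Without reverse embryo 1, the reverse share was 63.3% ± 5.05 (SD, n = 4).

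**Figure D3:**
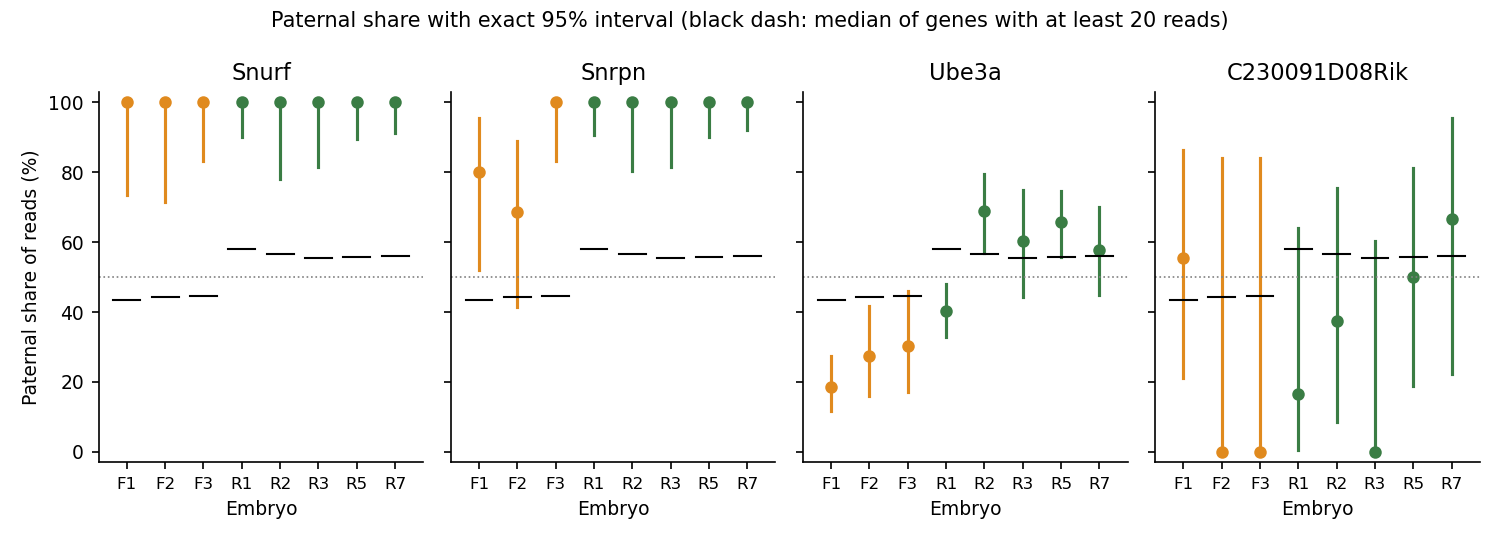
Paternal share of SNP-spanning reads in percent for 4 domain genes in each forward (F, orange) and reverse (R, green) embryo, with exact 95% binomial intervals as vertical lines and the median gene of each embryo as a black dash. Snurf is at 100% in all embryos, Snrpn falls to 80.0% and 68.8% in forward embryos 1 and 2, and Ube3a lies below the median gene in the 3 forward embryos and in reverse embryo 1; the intervals cover counting error only.

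The levels of both alleles together did not separate the crosses. Snurf was at 7.35, 9.55 and 15.7 RPM in forward embryos 1, 2 and 3. In reverse embryos 1, 2, 3, 5 and 7 it was at 23.9, 9.38, 12.0, 24.8 and 37.7. Reverse embryos 2 and 3 lay within the forward range, and the other 3 above it. Ube3a ranged from 33.7 to 65.5 RPM in forward and from 28.7 to 114 in reverse embryos, with reverse embryo 1 highest. Of the 5 domain genes none was called between the crosses, where 0.0688% of 13078 genes were. The log2 fold change, forward over reverse, was -0.97 for Snurf (95% interval -2.32 to 0.38 with 6 residual degrees of freedom, edgeR adjusted p = 0.715), and for Ube3a it was -0.42 (-1.39 to 0.56, edgeR adjusted p = 0.838). The lowest unadjusted p of the 5 genes was 0.0996, for Snurf.

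**Figure D4:**
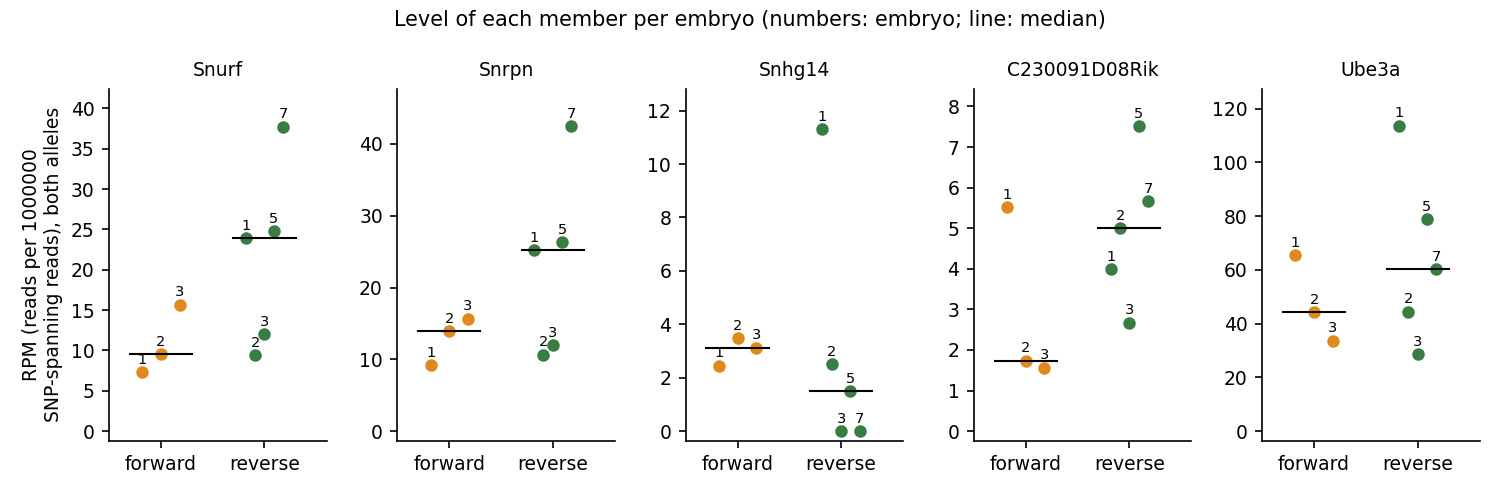
RPM (reads per 1000000 SNP-spanning reads) of both alleles for each domain gene, with a point for each embryo labelled by its number and a line at the median of each cross; each panel has its own linear scale from 0. The crosses overlap for every gene, and reverse embryo 1 is the highest point for Snhg14 (11.3) and Ube3a (114).

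Around the domain, 19 of 31 listed neighbours were in the counts and 7 were tested. None of the 7 was called for a parent, 3 passed the equivalence test (Herc2, Nipa2 and Cyfip1) and Tubgcp5 passed neither. Herc2, a giant HECT ligase that binds E6-AP, had 305 maternal and 318 paternal reads. Cyfip1, an actin regulator, had 499 and 686, Nipa2, a magnesium transporter, 322 and 271, and Tubgcp5, a gamma-tubulin complex protein, 187 and 344. The lipid flippase gene Atp10a had 15 maternal and 7 paternal reads in forward and 0 and 22 in reverse embryos. It had no cast read in the reverse cross, where 17 of its reads lay in embryo 7. No other library of Atp10a reached 10 reads, so it entered the edgeR tests only through that embryo. Gabrg3, a GABA receptor subunit gene, had 12 and 6 reads in forward and 1 and 69 in reverse embryos, 55 of its reads in reverse embryo 1. No other embryo had more than 9 reads, so Gabrg3 entered the edgeR tests only through that embryo and was not tested without it. Its strain term, cast over B6, was -2.54 (edgeR adjusted p = 0.0897, with 10.9% of genes called toward B6), and this call is not read further.

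Other neighbours were too sparse to test, among them genes known as paternally expressed. Peg12 had 2 maternal and 6 paternal reads over all embryos and Mkrn3 had 3 and 5. Ipw, a noncoding transcript of the small nucleolar RNA region, had 0 and 4. A230057D06Rik, a noncoding transcript listed among the neighbours, had reads in all 8 embryos, 17 in forward, all maternal, and 14 in reverse, all paternal. Its 31 reads were thus all B6, like the Snrpn counts less those of Snurf, and allow a cast share of up to 9.68%. It was named after its values were seen.

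Genes related by function were set beside the 1.42% of all genes called for a parent and the 35.4% that passed the equivalence test. Of 29 tested Sm and small nuclear RNP proteins, which include the SmN relative Snrpb (757 maternal, 765 paternal reads), none was called for a parent and 20 passed the equivalence test. Their median log2 fold change was 0.08, beside -0.01 over all 12565 genes tested. Of 28 HECT ligases and E6-AP partners none was called and 15 were equivalent (median 0.01). Of 18 other small nucleolar RNA host genes 1 was called, the maternally expressed Rian (76 maternal, 0 paternal reads, edgeR adjusted p = 0.0302), a call lost without forward embryo 3 (adjusted p = 0.193) and with the replicate block (adjusted p = 0.111), and 11 were equivalent.

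Of 13 tested genes listed for paternal transcripts of other maternally methylated germline regions, 8 were called, all paternal, beside 1.11% of all genes. The list median was 4.48. The 6 with the lowest p were Slc38a4, Airn, Peg3, Kcnq1ot1, Fkbp6 and Zdbf2, with log2 fold changes from 4.13 (Airn) to 8.48 (Slc38a4). Snurf (7.39) and Snrpn (4.39) lay within that range. The lists were chosen with earlier results known, and their counts describe these genes only.

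Across the 16 allele libraries, the 5 genes whose RPM (log2, plus 1) were most like those of Snrpn, of 9039 candidates, were Gm33149 (Pearson r = 0.959), Platr20 (0.953), Gab1 (0.953), Dubr (0.953) and Rbms1 (0.952). All 5 had more paternal than maternal reads, between 206 and 2019 against 3 to 59. The ranking itself favours such genes, since Snrpn had few reads in the maternal libraries. For Ube3a they were Ercc6l2 (0.90), Cramp1l (0.885), Sntg1 (0.858), Vrk2 (0.853) and Rad23b (0.851), which had reads of both alleles, such as the 480 maternal and 498 paternal reads of Rad23b. The libraries of an embryo share its RNA and depth, so these are descriptions.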

How the data were processed

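RNA of 8 single E3.5 blastocysts (3 forward, 5 reverse) was sequenced with SMART-Seq2. The deposited values are raw counts, for every gene and strain of an embryo, of the reads that cover a SNP. The authors aligned reads to mm10 with STAR (version 2.5.2b in the submitters' processing notes), dropped multiply mapped reads, and did not normalise the counts, which come from Allelome.Pro. Samples 4 and 6 were removed by the authors for low mapping or few reads and are not analysed here. The annotation used for counting is not given in the sources used here.

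Reads were assigned to parents by cross, and symbols were placed with GENCODE M21 (18286), RefSeq (2999) or RefSeq synonyms (416), with 1109 unplaced. The 16 allele libraries were tested with edgeR 4.0.16 (R 4.3.3; TMM, quasi-likelihood, strain and parent as terms) over 12565 autosomal genes with at least 10 reads in at least 1 library, with Benjamini-Hochberg adjustment and a threshold of 0.1. Equivalence used one-sided tests against a log2 margin of 1. Shares needed at least 5 reads per embryo in the exact tests unless stated. The sign-flip tests had no strain term, so they do not separate parent from strain where the crosses differ. Binomial intervals, and limits for 0 reads (3 reads over all 8 embryos), cover counting error only, since the reads carry no molecular identifiers, while intervals of fold changes come from edgeR standard errors over the libraries. A fit of Snurf and Snrpn summed is not reported, since it could count the same reads in both rows. The fits were tested on simulated data.

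The maternal and paternal libraries of an embryo are a true pair, since they come from the same embryo, and their deviations from the group means correlated with r of 0.0719 to 0.444. A term for each embryo was therefore also fitted. DESeq2 1.42.0, other scalings and filters and leaving out each embryo were further alternatives. The named genes were the 5 domain genes, the tested neighbours (1 of them is not reported here), up to 6 called genes of each list and the 5 most correlated genes of Snrpn and Ube3a. The genes and lists were chosen with earlier results of these data known.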

Additional observations from a re-analysis of the deposited data

Results flagged for a closer look

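Snhg14 was at 11.3 RPM (reads per 1000000 SNP-spanning reads) in reverse embryo 1, far from the other 4 reverse embryos, which had at most 4 reads each, a gap that exceeded Dixon's 95% critical value. It was the only such value among the 7 groups of values tested. For normally distributed values, chance alone gives 1 in about 20 groups. The Snhg14 values rest on few reads, so that rate may not hold for them. The 17 reads behind the flagged value were all paternal. The same embryo had the highest Ube3a level, the highest Syt1 level and the lowest Krt8 level of the 8 embryos. The part of this embryo's makeup in the Snhg14 value was not tested.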

How the results depend on the processing

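The paternal calls of Snurf and Snrpn held under all 16 alternatives each, with log2 fold changes of 6.73 to 7.52 and 3.93 to 5.33. Both calls may rest on shared reads. Ube3a stayed uncalled for a parent under all 16 (-0.75 to -0.39). The parental change of Snhg14 passed only with no filter on low counts (5.09). The strain change of Snrpn passed with 1 library size per embryo (-1.74), with the replicate block (-2.49) and without forward embryo 3. Its leave-one-out range was -1.96 to -1.12. With 1 library size per embryo, 2573 of 12565 genes were called for strain, 323 of them toward cast. With the main settings these numbers were 1933 and 562. The strain change of Ube3a passed with the replicate block (-0.70) and without reverse embryo 1, over a leave-one-out range of -0.87 to -0.45. The equivalence p of Ube3a ranged from 0.0717 to 0.424 over the left-out embryos. The strain change of Snhg14, 0.33 and not called, was -0.034 with 1 library size per embryo. Its level difference between the crosses, 0.06 and not called, reversed in sign without forward embryo 2 (-0.05) and without reverse embryo 3, 5 or 7 (-0.23, -0.09 and -0.23). The leave-one-out range was -0.23 to 0.21. The number of genes called for a parent, 178, was 406 with no filter, 75 with at least 10 reads in every embryo, 391 with the replicate block, 306 with the setting legacy = FALSE of edgeR, 256 with DESeq2, and 120 to 197 with an embryo left out. The block changed no other call of the 5 domain genes. The paternal share of C230091D08Rik in the forward cross, 55.6% in the only embryo with 5 reads, was 18.5% over all 3 embryos and 38.5% on summed reads. That of Snrpn in the forward cross was 0% over its counts less those of Snurf, an alternative chosen after the counts were seen. The causes of these shifts were not tested.

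Few reads limit what can be said. Snhg14 had 35 reads and C230091D08Rik 47 over 8 embryos, so a maternal share under 8.57% of Snhg14 was not detectable. With 3 forward embryos, the exact comparison of crosses cannot go below p = 0.0179. Gene counts do not give the exon or strand of a read, so the overlaps of Snurf with Snrpn and of Snhg14 with Ube3a could not be resolved.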
